A study of Mus musculus with 6 samples.

Results

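The 10 genes examined here mark pituitary cells and were followed in 6 RNA-seq libraries of mouse hypothalamus, 3 labelled wild-type and 3 labelled SRC1 KO. They are the rows of the counts table, 10 of 50559, whose gene name is one of a fixed set of names. The first 5, Cga, Tshb, Pitx1, Epcam and Mtnr1a, were taken as the pars tuberalis set. The other 5, Gh, Prl, Lhb, Fshb and Pou1f1, were taken as the anterior lobe set. SRC-1, steroid receptor coactivator 1, is a coactivator of nuclear receptors encoded by Ncoa1. The tissue is hypothalamus in both groups, and the genotype is the one difference that the labels give between them. The sources used here give no strain, age or sex, and neither the part of Ncoa1 that was deleted nor the way the tissue was cut out. Nothing in the labels ties each replicate to its own animal. The p-values below therefore measure the spread between libraries, which may be technical.

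The pars tuberalis is the thin part of the pituitary that wraps the stalk and lies against the median eminence, the floor of the hypothalamus. Its thyrotropes make thyrotropin (TSH) from an alpha subunit, encoded by Cga, and a beta subunit, encoded by Tshb, and they carry the melatonin receptor Mtnr1a. TSH released there acts on tanycytes, the cells that line the floor of the ventricle, where it sets the local supply of active thyroid hormone. The anterior lobe is a separate part of the gland that makes growth hormone, prolactin and the gonadotropins, under the transcription factor Pou1f1 for the first pair and for TSH.

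The members were chosen by their counts in these same 6 libraries, which were already known, so their values are a description and carry no test. In bulk tissue, fewer cells of a type and less RNA per cell cannot be told apart.

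The alpha subunit is shared by TSH and the gonadotropins, and each hormone has its own beta subunit. The 250 bases before the start of these subunit genes are shown because the counts of these genes differed in pattern, together with those of Prl, whose transcription depends on Pou1f1. Whether these windows bear on the counted reads was not tested. They come from the RefSeq promoter table in build GRCm38.p6, which held 8 of the 10 genes; Gh and Pitx1 had no entry. Capitals mark matches, on either strand, to 5 motifs, whose letters are given after the sequences.
Cga, chr4:34893529-34893778, plus strand: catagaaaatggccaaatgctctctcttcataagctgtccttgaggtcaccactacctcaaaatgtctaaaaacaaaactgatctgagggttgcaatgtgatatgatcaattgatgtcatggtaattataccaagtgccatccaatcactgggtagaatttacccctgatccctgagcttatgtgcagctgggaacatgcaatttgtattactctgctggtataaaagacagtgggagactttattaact
Tshb, chr3:102782715-102782964, minus strand: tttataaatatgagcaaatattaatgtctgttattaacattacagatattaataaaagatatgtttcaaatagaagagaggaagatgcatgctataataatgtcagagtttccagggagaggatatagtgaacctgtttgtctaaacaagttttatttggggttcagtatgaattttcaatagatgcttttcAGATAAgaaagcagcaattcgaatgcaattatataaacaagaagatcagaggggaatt
Lhb, chr7:45420696-45420945, plus strand: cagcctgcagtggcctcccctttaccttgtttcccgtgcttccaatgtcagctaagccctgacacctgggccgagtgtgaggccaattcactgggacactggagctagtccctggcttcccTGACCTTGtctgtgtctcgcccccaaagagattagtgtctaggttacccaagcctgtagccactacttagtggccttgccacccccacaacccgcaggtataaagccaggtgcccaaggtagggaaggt
Fshb, chr2:107059652-107059901, minus strand: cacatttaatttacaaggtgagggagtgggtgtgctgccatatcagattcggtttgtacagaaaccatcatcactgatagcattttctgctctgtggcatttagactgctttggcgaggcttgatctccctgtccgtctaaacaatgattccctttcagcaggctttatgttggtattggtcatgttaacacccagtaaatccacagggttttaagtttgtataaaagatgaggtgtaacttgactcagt
Prl, chr13:27057320-27057569, plus strand: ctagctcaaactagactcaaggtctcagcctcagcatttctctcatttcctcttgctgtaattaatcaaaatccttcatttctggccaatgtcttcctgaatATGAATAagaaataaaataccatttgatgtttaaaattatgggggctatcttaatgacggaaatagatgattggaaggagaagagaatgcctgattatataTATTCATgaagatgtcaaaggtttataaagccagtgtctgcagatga
The Tshb window held 1 GATA match, 58 to 53 bases before the start, and the Lhb window 1 SF-1 match, 129 to 122 bases before it. Prl held 2 POU1F1 matches, at 148 to 142 and 47 to 41 bases before the start. Cga and Fshb held none of the letters searched, which says nothing about which factors bind there. The shares that follow are of all 32851 windows of this length in the table, both strands searched. The GATA letters, AGATAA, were found in 9.99%. SF-1, searched as CAAGGTCA, was found in 1.33%. For POU1F1 the letters were ATGNATA, found in 7.92%. PITX factors were searched as TAATCC, found in 6.25%. The D-box, the site of circadian PAR bZIP factors, was searched as TTATGNAA and found in 3.07%.

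Library totals ran from 36613507 to 46755553 read pairs. Counts of Ncoa1, the targeted gene, lay between 4630 and 5406 in the wild-type libraries and between 1478 and 1766 in the knockout libraries, so all 3 knockout libraries were below every wild-type library. All 9 hypothalamic neuropeptide genes of a marker list were detected, with summed levels of 620 to 766 CPM (counts scaled to library size) in wild-type and 680 to 817 CPM in the knockout. Wild-type 1 and knockout 1 stand apart by their growth hormone counts. Where leaving out this pair ended a call or moved a value by over 1.5 times, the value without it is given beside the result.

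Cga, the hormone alpha subunit (chromosome 4, 34893779 to 34907374, plus strand, GRCm39), was the member with the largest gap between the groups among those counted in both. Wild-type libraries 1 to 3 held 184, 225 and 502 Cga counts, and knockout libraries 1 to 3 held 15, 1 and 3. The lowest wild-type library was above the highest knockout library, and within the knockout most of the counts were in library 1. On the CPM scale the means were 7.51 ± 4.02 in wild-type and 0.149 ± 0.181 in the knockout (SD, n = 3 each), a 50.3-fold difference. Without knockout 1 the fitted log2 difference was -7.24, against -5.62 with all libraries, and without the pair with most growth hormone it was -7.51. The 95% Poisson interval of the single count in knockout 2 runs from 0.0253 to 5.57, and such intervals cover counting error only.

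Pitx1, a homeobox factor of the early and adult pituitary (chromosome 13, 55972857 to 55984002, minus strand), had 37, 36 and 54 wild-type counts and 3, 3 and 4 knockout counts. The knockout libraries were nearly level and far below every wild-type library. The means were 1.05 ± 0.215 and 0.0782 ± 0.0084 CPM (SD, n = 3 each), 13.5-fold apart. Epcam, an adhesion molecule of epithelial cells (chromosome 17, 87943407 to 87958555, plus strand), had 47, 56 and 79 wild-type counts and 8, 4 and 4 knockout counts. These groups did not overlap either, with means of 1.51 ± 0.376 and 0.126 ± 0.056 CPM (SD, n = 3 each) and a fitted log2 difference of -3.55, or -4.13 without that pair of libraries. Cga, Pitx1 and Epcam each had their highest count in wild-type 3, as did Tshb, Lhb and Fshb.

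**Figure D1:**
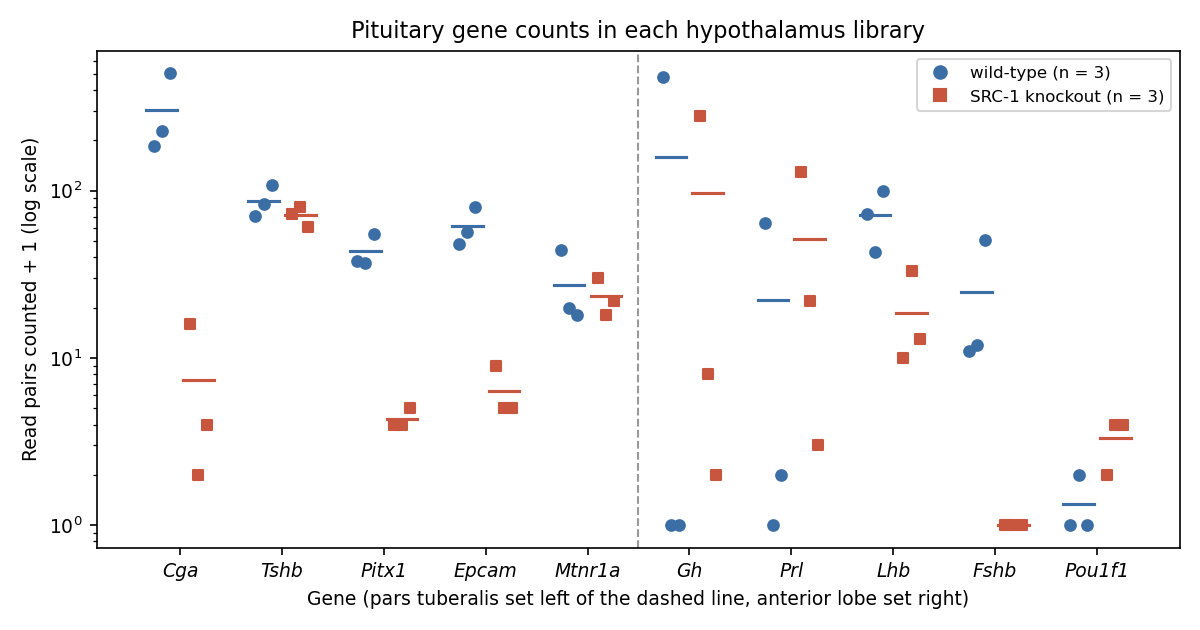
Read pairs counted for each of the 10 genes in each library, on a log scale after adding 1; points are libraries (circles wild-type, squares SRC-1 knockout, n = 3 each, replicates 1 to 3 from left to right) and lines are means. Cga, Pitx1, Epcam, Lhb and Fshb separate the groups, Tshb and Mtnr1a do not, and Gh and Prl follow single libraries of both groups.

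Tshb, the beta subunit of TSH, did not follow Cga in its counts. It had 70, 82 and 107 wild-type counts and 72, 79 and 60 knockout counts, so the groups overlapped. The means were 2.15 ± 0.43 and 1.67 ± 0.34 CPM (SD, n = 3 each), 1.29-fold apart. Mtnr1a, the melatonin receptor (chromosome 8, 45522144 to 45542270, plus strand), had 43, 19 and 17 wild-type counts and 29, 17 and 21 knockout counts. Here the highest library of each group was replicate 1, the pair with most growth hormone, and without wild-type 1 the fitted log2 difference turned from -0.32 to 0.21.

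What was counted as Tshb bears on that level. The annotation used by the authors gives Tshb 4802 exon bases on chromosome 3, 102684621 to 102718175, minus strand. Only 561 of them, 11.7%, lie in the exons of the canonical hormone transcript in GENCODE (also GRCm39). The longest counted block, 102685466 to 102688497, spans 3032 bases, of which 163 are in that transcript. For Cga the same share was 88.9%, for Pitx1 92.1%, for Epcam 84.6% and for Mtnr1a 57.6%. None of the 10 genes shared counted exon bases with another gene of the table. Counts by exon were not analysed here, so which part of Tshb the reads came from was not tested.

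The table's Lhb has the same feature. It covers 3265 exon bases on chromosome 7, 45066912 to 45071279, plus strand, and 636 of them, 19.5%, are in the hormone transcript. GENCODE has 2 loci of this symbol, and the shorter was taken as the hormone gene.

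**Figure D2:**
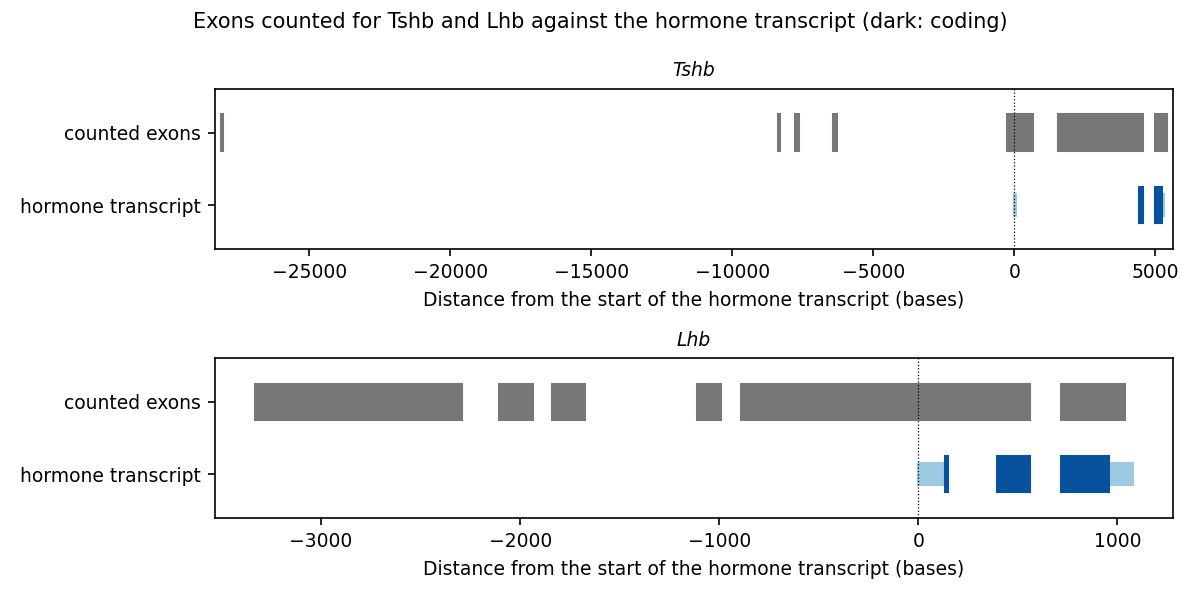
Exon blocks counted for Tshb and Lhb (grey) above the canonical GENCODE transcript of the hormone (light blue exons, dark blue coding part), by distance in bases from that transcript's start. Most of the counted bases of both genes lie outside the hormone transcript, with 561 of 4802 inside for Tshb and 636 of 3265 for Lhb.

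Growth hormone set the libraries apart in a way that crossed the genotypes. Gh (chromosome 11, 106191087 to 106194529, minus strand) had 477, 0 and 0 wild-type counts and 280, 7 and 1 knockout counts. One library of each group held nearly all of its group's counts. A count of 0 allows up to 3 counts, or 0.0792 CPM in wild-type 2 and 0.0722 CPM in wild-type 3. Prl, prolactin (chromosome 13, 27241553 to 27249187, plus strand), had 63, 0 and 1 wild-type counts and 129, 21 and 2 knockout counts. Its high libraries were the same pair, but knockout 1 was above wild-type 1, the reverse of Gh. Per kilobase of exon, the Gh count was 6.59 times the Prl count in wild-type 1 and 1.89 times in knockout 1. The fitted log2 difference of Prl was 1.20 with all libraries, 6.28 without wild-type 1 and -0.92 without knockout 1.

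For both gonadotropin beta subunits the knockout libraries lay below every wild-type library. Lhb, of luteinizing hormone, had 72, 42 and 98 wild-type counts and 9, 32 and 12 knockout counts, with means of 1.74 ± 0.625 and 0.428 ± 0.329 CPM (SD, n = 3 each). Fshb, of follicle-stimulating hormone (chromosome 2, 106886331 to 106889996, minus strand), had 10, 11 and 50 counts in wild-type and 0 in every knockout library. Pooled over a group, the wild-type level of Fshb, 0.591 CPM, was 25.1 times a limit of 3 counts over the 3 knockout libraries. The spread between wild-type libraries is not in that figure. Of the 71 wild-type counts of Fshb, 50 came from wild-type 3, which had no counts of Gh. Pou1f1, which drives the growth hormone, prolactin and TSH lineages (chromosome 16, 65317398 to 65331904, plus strand), had 0, 1 and 0 wild-type counts and 1, 3 and 3 knockout counts. Both groups were at or under 3 counts, so no fold is given.

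Set against each other within a library, the 5 pars tuberalis genes and the 4 anterior lobe hormones gave different balances. The pars tuberalis genes took 38.0% of the summed counts of both sets in wild-type 1 (381 counts against 622; exact Clopper-Pearson 95% interval 35.0 to 41.1%), 88.7% in wild-type 2 (85.5 to 91.5%) and 83.6% in wild-type 3 (81.0 to 85.9%). They took 23.3% in knockout 1 (19.8 to 27.1%), 63.4% in knockout 2 (55.5 to 70.8%) and 86.0% in knockout 3 (77.9 to 91.9%). The low shares were those of replicate 1 in both groups. Gh and Prl gave 0 of the 53 anterior lobe counts in wild-type 2 and 1 of the 149 in wild-type 3. The rest there were Lhb and Fshb. With counts taken per kilobase of exon the shares were 35.2, 94.9 and 92.5% for wild-type 1 to 3, and 10.7, 40.3 and 80.0% for knockout 1 to 3. On that scale wild-type 1 and every knockout library were lower, and wild-type 2 and 3 were higher. Tshb, divided by 4802 bases, gave 72 of the 127 pars tuberalis counts in knockout 1 and 79 of the 104 in knockout 2. In knockout 3 the high share rests on few counts, 92 against 15, with Tshb and Mtnr1a giving most of the 92.

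Set on a per-length scale, the counts of Cga and Tshb stood in different proportions in the groups. Per kilobase of exon, the Cga count was 16.3, 17.0 and 29.1 times the Tshb count in wild-type 1 to 3, and 1.29, 0.0785 and 0.31 times in knockout 1 to 3. The ratio is computed over all counted Tshb exons, of which 11.7% of the bases lie in the hormone transcript. Cga also serves the gonadotropins, so whether the subunits of TSH changed in proportion was not tested. The Cga count was 0.513 times the Gh count per kilobase in wild-type 1 and 0.0712 times in knockout 1, the pair in which both genes had 15 counts or more. Without Cga and Gh, the most abundant gene of each set, the pars tuberalis share of the counts came to 57.6, 78.5 and 63.3% (wild-type 1 to 3) and 44.8, 66.0 and 86.4% (knockout 1 to 3). The groups overlapped on either basis.

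**Figure D3:**
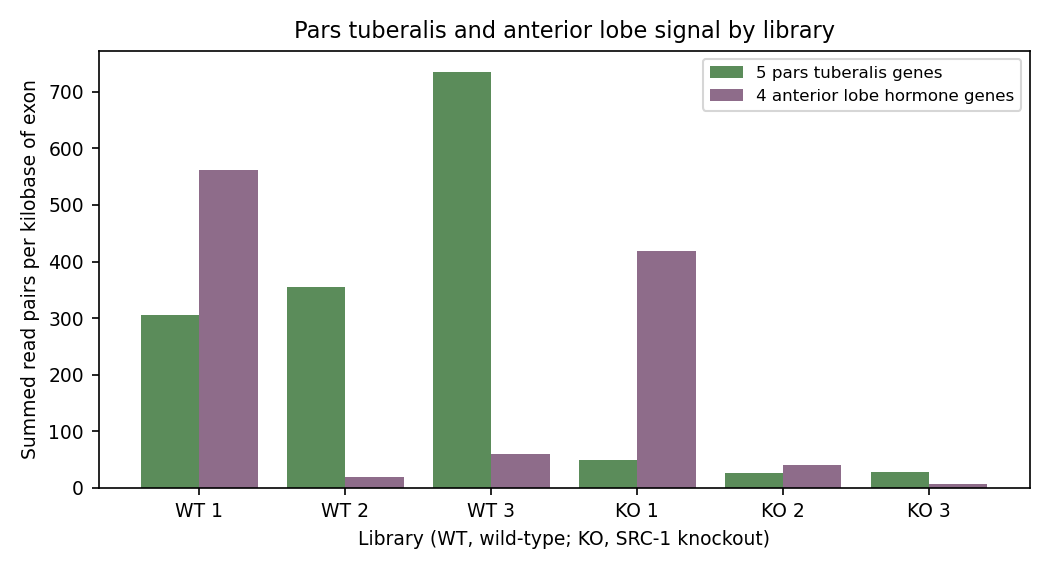
Read pairs per kilobase of exon, summed over the 5 pars tuberalis genes (green) and the 4 anterior lobe hormone genes (purple) in each library; bars are single libraries without error. The green bars are highest in the 3 wild-type libraries, and the purple bars are high in replicate 1 of both groups.

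Levels per length put Cga first in wild-type, at 9.70 ± 5.20 RPKM (CPM per kilobase of exon), then Gh at 3.79 ± 6.56 RPKM (SD, n = 3 each). Epcam (0.733), Prl (0.584), Lhb (0.534), Tshb (0.448), Pitx1 (0.396), Fshb (0.331) and Mtnr1a (0.239) followed in mean RPKM. Every pair of neighbours in this order overlapped in range over the wild-type libraries, except Mtnr1a and Pou1f1, which was last at 0.00385 RPKM. In the knockout Gh came first at 2.23 ± 3.69 RPKM and Prl next at 1.36 ± 1.82 RPKM. Tshb followed at 0.349 ± 0.071 RPKM and then Cga at 0.193 ± 0.234 RPKM. For Tshb and Lhb the length used is all counted exon bases, of which 11.7% and 19.5% lie in the hormone transcript. Their places in both orders depend on that length.

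Of the 10 members, 8 passed the filter on low counts and were tested across the table. Gh did not pass it because only 2 libraries held at least 10 counts of it, and Pou1f1 had at most 3 counts in any library. Pitx1 and Epcam were called lower by edgeR at an adjusted p under 0.05, 2 of the 8, where 0.592% of the 20257 genes tested were; 0.242% were called higher, none of them a member, and 0.834% in either direction. In 5 of the 8, Cga, Pitx1, Epcam, Lhb and Fshb, the groups did not overlap and the knockout was lower, as in 9.03% of all genes tested. The knockout was higher without overlap in 8.58% of all genes and in 0 of these 8. The rule used this contrast, so nothing is read from either count.

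By its centred profile over the 6 libraries, the genes most like Cga were Fndc3c1, Ces1d, Col23a1 and Rec8. The measure is the root-mean-square difference between centred log2(CPM + 1) profiles, here 0.392, 0.495, 0.577 and 0.665, among 15096 genes with at least 100 counts in all. Fndc3c1 had 171, 195 and 486 wild-type counts and 72, 6 and 10 knockout counts, close to Cga library by library, with wild-type 3 highest and knockout 1 first among the knockouts. Among the other members Epcam was nearest to Cga (0.869) and Gh farthest (2.17). After Epcam came Pitx1 (0.990), then Lhb (1.01) and Fshb (1.11) of the anterior lobe set. Tshb (1.32) and Mtnr1a (1.45) of the pars tuberalis set were farther from Cga than these. The profiles were not scaled, so the level of a gene and the size of its differences count as well as shape. Pitx1 and Fshb, both at low levels, were nearer to Tshb (0.366 and 0.279) than to Cga. Tshb varied so little that its nearest genes, Gcnt2, Hcrtr2, Ankrd63 and Calca, lay within 0.0361 to 0.0666. Gh had no close match, as Igfbpl1, Vip and Avp, among its nearest genes, stood at 1.14 to 1.19, farther than the member Prl at 0.918. Avp, vasopressin, had 6117, 3641 and 1023 wild-type counts and 3285, 1279 and 3174 knockout counts, so knockout 3 was high in Avp and held 1 count of Gh.

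The other genes of these systems were tested as 7 lists that hold no member. Of 80 genes, 67 were tested, 5 fell and 0 rose in the knockout by edgeR (adjusted p under 0.05, Benjamini-Hochberg over all genes), beside 0.592% and 0.242% of all genes. Without the growth hormone pair 2 fell, Gpr50 among them, and by DESeq2 13 were called. Gpr50, Tshr, Crym and Krt18 were among the 5. The median log2 fold change of all genes tested was 0.0042.

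Of the 5 genes that fell, 3 receive or handle the TSH and thyroid hormone signal. Of 10 genes on that list 9 were tested, 3 fell and 0 rose, with a median of -0.73. Tshr, the TSH receptor, had 139, 142 and 199 wild-type counts and 50, 65 and 79 knockout counts. The groups were well apart, at 3.98 ± 0.719 and 1.52 ± 0.289 CPM (SD, n = 3 each). Tshr fell by 1.39 ± 0.21 (SE) on the log2 scale (adjusted p 0.0216 by edgeR). Crym, a thyroid hormone binding protein of the cytosol, fell from 6.49 ± 1.35 to 2.36 ± 0.706 CPM (-1.46 ± 0.24, adjusted p 0.033 by edgeR). Dio2, the deiodinase that TSH is known to induce in tanycytes, had 322, 581 and 1059 wild-type counts and 312, 269 and 295 knockout counts, and did not pass (-1.24 ± 0.45, adjusted p 0.353). Its wild-type libraries were widely spread, and wild-type 1 lay near the knockout libraries. The thyroid hormone transporter Slco1c1 was higher in every knockout library without passing (0.37 ± 0.12, adjusted p 0.201), and the receptor Thrb did not pass either (-0.30 ± 0.084, adjusted p 0.144).

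With 1 library left out in turn, Tshr passed in 5 of 6 fits, the exception being the fit without knockout 1 (adjusted p 0.104 by edgeR). Crym passed in 2 of 6, and its adjusted p was 0.0707 when wild-type 2 was left out, 0.065 for wild-type 3, 0.105 for knockout 1 and 0.0734 for knockout 3. Dio2 passed in 1, the fit without wild-type 1 (0.0325). Without the growth hormone pair Tshr had an adjusted p of 0.136 and Crym 0.0501.

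**Figure D4:**
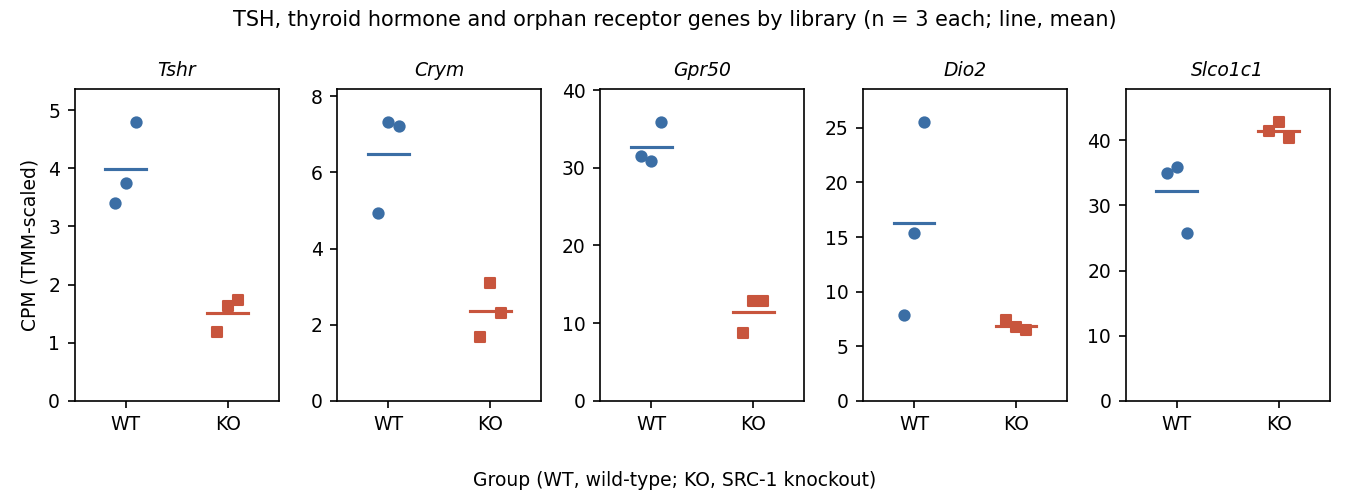
TMM-scaled CPM of 5 genes in each library, with points for libraries and lines for group means (WT, wild-type; KO, SRC-1 knockout; n = 3 each; each axis starts at 0). Tshr, Crym and Gpr50 are lower in all 3 knockout libraries than in any wild-type library, Dio2 is spread over the wild-type libraries, and Slco1c1 is higher in the knockout.

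The melatonin and photoperiod list gave 1 fall and 0 rises among 8 tested genes, with a median of -0.12. Gpr50, an orphan relative of the melatonin receptors found in tanycytes, fell from 32.7 ± 2.73 to 11.5 ± 2.37 CPM (-1.51 ± 0.15, adjusted p 0.00738 by edgeR), and it passed in 6 of 6 fits with 1 library left out. The second melatonin receptor, Mtnr1b, had 1 count in all. Eya3, a coactivator of Tshb in the photoperiodic pars tuberalis, was level (0.0043 ± 0.066, adjusted p 0.989).

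Pituitary lineage factors held no gene past the threshold by edgeR among 14 tested, with 5 at an unadjusted p under 0.05 and 1 called by DESeq2. Their median was -0.45. Lhx3, a LIM factor needed by most pituitary lineages, had 36, 29 and 49 wild-type counts and 16, 19 and 16 knockout counts (-1.23 ± 0.29, adjusted p 0.0807 by edgeR). Its groups did not overlap. Lhx4 and Hesx1 were among the genes with too few counts to be tested.

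Epithelial junction and keratin genes held 1 fall and 0 rises among 12 tested, all 12 with negative values and a median of -0.54. Krt18, a keratin of simple epithelia, fell from 3.83 ± 0.934 to 1.71 ± 0.294 CPM (-1.16 ± 0.22, adjusted p 0.0447 by edgeR), but it passed in 1 of 6 fits with a library left out. It passed when knockout 2 was left out (0.0325), and the other 5 fits, each without one of wild-type 1, wild-type 2, wild-type 3, knockout 1 or knockout 3, gave 0.128, 0.0518, 0.0542, 0.192 and 0.0787. Its partner Krt8 had 76, 41 and 40 wild-type counts and 6, 17 and 4 knockout counts (-2.58 ± 0.51, adjusted p 0.0564). Without the pair with most growth hormone, Krt18 stood at -0.84 on the log2 scale (adjusted p 0.456 by edgeR). Krt8 passed without knockout 2 (0.00669) and the cadherin Cdh1 without wild-type 3 (0.0177).

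The remaining lists held no gene past the threshold by edgeR, with medians of -0.07 (receptors of pituitary cells), -0.15 (secretory genes) and -0.09 (receptors and signals of pituitary hormones). Receptors of pituitary cells had 2 of 6 tested genes at an unadjusted p under 0.05 and 1 called by DESeq2. That gene was Ghsr, the ghrelin receptor (-0.59 ± 0.14, adjusted p 0.0855 by edgeR). Sstr5, a somatostatin receptor, had -0.38 ± 0.16 (adjusted p 0.336). Ghrhr, Gnrhr and Avpr1b, also on that list, had 0 to 3 counts in every library and were not tested. Counts this low say nothing about whether anterior lobe cells were present. Secretory genes had 2 of 8 at an unadjusted p under 0.05 and 1 called by DESeq2, Dlk1 (-0.28 ± 0.083, adjusted p 0.172 by edgeR). Pomc, also an arcuate neuron gene, had -2.26 ± 0.81 (adjusted p 0.375), and passed without knockout 3 (0.0226). Receptors and signals of pituitary hormones had 2 of 10 at an unadjusted p under 0.05 and 2 called by DESeq2, Ghr, the growth hormone receptor (-0.39 ± 0.099, adjusted p 0.106 by edgeR), and Socs3, a feedback inhibitor (-0.92 ± 0.29, adjusted p 0.198), which passed without knockout 2 (0.0357).

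**Figure D5:**
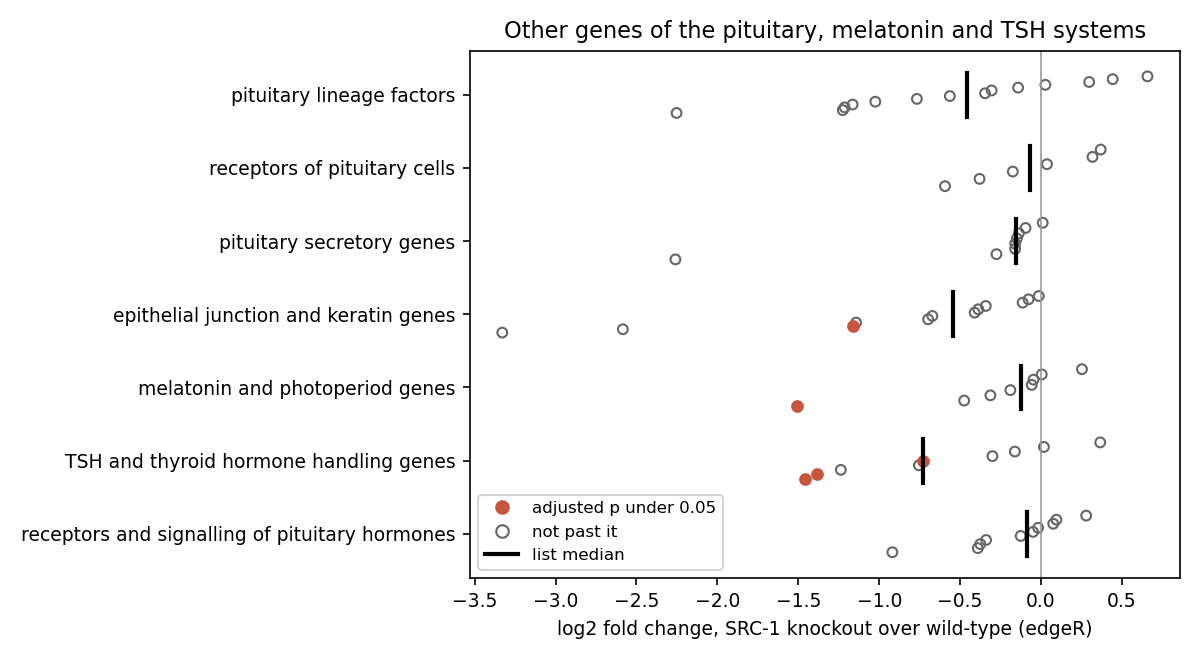
Log2 fold change, knockout over wild-type, for every tested gene of the 7 lists; filled points passed an adjusted p of 0.05 in edgeR, open points did not, and bars are list medians, from -0.73 (TSH and thyroid hormone handling) to -0.07 (receptors of pituitary cells). The 5 filled points all lie below 0.

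Markers of tanycytes and of other cells that the tissue could hold were read in the same contrast, and their part in the results above was not tested. Tanycyte markers fell in 7 of 10 tested genes, with summed levels of 325 to 333 CPM in wild-type and 227 to 249 CPM in the knockout and none at 0. Frzb (-1.32 ± 0.17, adjusted p 0.0113 by edgeR) and Rax (-2.31 ± 0.32, adjusted p 0.0172) were among them, and Gpr50, Crym and Dio2 are on this list too. Rax did not pass without knockout 1 (0.107). Without the growth hormone pair Frzb (0.0226) and Rax (0.0236) passed. Of the 7, Vim (0.239), Lhx2 (0.277) and Crym (0.0501) did not pass without it (adjusted p by edgeR). Meningeal fibroblast markers held 1 fall of 11, Lum (-1.50 ± 0.28, adjusted p 0.0458), with summed levels of 67.6 to 291 CPM in wild-type and 63.8 to 67.0 CPM in the knockout. By library these meningeal sums were 168, 291 and 67.6 CPM in wild-type 1 to 3, and 64.3, 63.8 and 67.0 CPM in knockout 1 to 3. Lum passed in 1 of 6 fits with a library left out, without wild-type 3 (0.0176), and otherwise had an adjusted p from 0.0615 to 0.187. Without the growth hormone pair it was 0.366. Choroid plexus markers held 0 of 8 by edgeR (5 at an unadjusted p under 0.05, 4 by DESeq2), with 51.0 to 56.5 CPM in wild-type and 27.2 to 36.2 CPM in the knockout. Folr1 (-1.63 ± 0.32, adjusted p 0.0519) and Kl (-0.65 ± 0.14, adjusted p 0.0593) led it. Blood cell markers, whose globin genes have near-identical copies, held 0 of 4 by edgeR (0 at an unadjusted p under 0.05, 0 by DESeq2), led by Hba-a1 (0.52 ± 0.44, adjusted p 0.738) and Hbb-bs (0.40 ± 0.49, adjusted p 0.831). Of the neuropeptides Agrp (-2.00 ± 0.58, adjusted p 0.24) and Npy (-1.63 ± 0.68, adjusted p 0.444) had the lowest p, and none of the 9 passed by edgeR (1 at an unadjusted p under 0.05, 1 by DESeq2).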

How the data were processed

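The labels' protocols name RNeasy for RNA extraction and Illumina TruSeq for the libraries. What the authors deposited is a single table of raw read-pair counts by gene. STAR 2.7.10a and build GRCm39 are named in the submitters' processing notes. The file headers give featureCounts 2.0.0 over RefSeq exons of mm39, the UCSC name of that build, without strand or multi-mapping options, while the processing notes give featureCounts 2.0.3. Reads of a gene and an antisense partner cannot be told apart. Of 50559 genes, 0 lacked a name, and the library code in each column heading matched 1 sample.

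Genes were filtered by group (minimum count 10), scaled by TMM and fitted with edgeR 4.0.16 (R 4.3.3), using its robust quasi-likelihood test. A gene was called at a Benjamini-Hochberg adjusted p under 0.05. The fit was tested on simulated data. The common biological coefficient of variation was 12.3%. Standard errors are the log2 fold change over the square root of F. Exact permutation of 3 against 3 cannot go below p = 0.1, so single values have no such test. Between replicates of a group, chi-square over its degrees of freedom was 8.01 to 16.9, above sampling noise, so each library counted as 1 replicate.

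The members and lists were chosen with earlier results of these data known. Named genes were the members, Ncoa1, up to 4 called genes per list (or the 2 with the lowest p where none was called), and the 4 genes most like Cga, Tshb and Gh. Others, such as Krt8, Cdh1, Dio2, Slco1c1, Thrb, Eya3 and Mtnr1b, were added once their values had been seen, and a few genes within the rule are not reported here. Alternatives were RLE size factors, library totals alone, other filters, DESeq2 1.42.0, a replicate block, each library left out, and the fit without wild-type 1 and knockout 1.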

Additional observations from a re-analysis of the deposited data

How the results depend on the processing

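The number of genes called was 169, with 66 under library totals alone, 966 with no filter, 84 with a filter of 1 CPM in 3 libraries, 824 with DESeq2, 29 without the pair with the most Gh counts, and 36 to 260 with 1 library left out. Of the members 2 were called, 1 with the stricter filter (Epcam), which left Pitx1 untested, and 5 with DESeq2. With no filter 3 were called, Lhb among them, and without the Gh pair 3, Cga among them. Of the other pituitary-related genes 5 were called, 3 under library totals alone, 17 with no filter, 13 with DESeq2, 2 without the Gh pair and 2 to 8 with 1 library left out. The cause was not tested. With 1 library left out, log2 differences ran from -0.57 to 0.21 for Mtnr1a (above 0 without wild-type 1), -0.92 to 6.28 for Prl (below 0 without knockout 1) and -0.011 to 0.78 for Hbb-bs (below 0 without knockout 2). The replicate numbers are not said to pair animals. Deviations of same-numbered libraries correlated at -0.21, 0.35 and 0.22, and 3 of 6 libraries correlated best with their own number. A replicate block gave 155 calls, 3 of them members, with 5 other pituitary-related genes, and Krt18 did not pass with it (adjusted p 0.0847 by edgeR), while Ghsr (0.0468), Agrp (0.0211), Npy (0.0105), Ghrh (0.0465) and Clic6 (0.0415) passed. Of the 12 genes most like Cga, Tshb and Gh, 8 or more were shared under another pseudocount or count minimum. Depth limits the knockout values of Cga, Pitx1 and Epcam, at 19, 10 and 16 counts in all.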
